A study of Rattus norvegicus with 10 samples.

Results

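Caveolins, cavins and Bin1 were followed at the transcript level in neonatal rat cardiomyocytes. Per the sample titles, the cells overexpressed either of 2 forms of the coactivator YAP. The genes were chosen by name, as Cav1, Cav2, Cav3, Cavin1, Cavin2, Cavin3, Cavin4 and Bin1. All 8 were found among the 39784 gene names of the deposited tables, each on 1 entry, and Cavin4 was listed under that name. All 8 also passed the filter for testing, a mean of at least 1 TPM (transcript abundance scaled for transcript length and library total), the lowest mean being 15.5 TPM for Cav2.

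The YAP5SA group was labelled Ad-Xon-YAP5SA, an activated YAP in which serines that receive inhibitory phosphate are replaced by alanine. The YAP5SA-S94A group was labelled Ad-Xon-YAP5SA-S94A and carried a further change that disrupts binding to TEAD transcription factors. Both groups were wild-type heart cells of newborn rats in serum-containing medium, with 2 poly(A) RNA libraries each, labelled biological replicates. The labels do not say whether the 2 came from separate isolations, so p-values measure only the spread between libraries. No RNA library of GFP or untreated cells was used here, so the values compare one YAP form with the other and leave the level of unmodified cells unknown. CUT&RUN was done on a further 6 samples, not analysed here.

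Caveolae are flask-shaped pits of the plasma membrane. Caveolins are the membrane-inserted proteins of their coat, and cavins are the peripheral proteins that assemble on them and stabilise the curvature. Cav1 and Cav2 act together in most cell types that form caveolae, among them endothelial cells, fibroblasts and smooth muscle, while Cav3 is the muscle caveolin. Cavin1 is needed for caveola formation in general and Cavin4 is the muscle cavin. Bin1, also called amphiphysin 2, bends membranes through its BAR domain and takes part in forming T-tubules, the inward folds of the muscle membrane that carry the action potential to the calcium release sites. T-tubules mature after birth in the rodent heart, and caveolin 3 is found in developing T-tubules.

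Most caveola coat genes were higher with the YAP form that can bind TEAD. Of the 8 genes, 6 rose in YAP5SA against YAP5SA-S94A and 0 fell, where 17.4% of the 13420 genes tested rose and 15.5% fell, 32.9% in all. A gene is said to have risen or fallen where its limma adjusted p, over all tested genes, lay under 0.05. Of the 6 that rose, Cav1, Cav2, Cavin1 and Cavin2 rose by more than 1 on the log2(TPM + 1) scale, and 7.49% of tested genes did so. Cav3 and Cavin4, the forms of striated muscle, rose by less, and Cavin3 and Bin1 did not pass the test. The median difference was 1.16 for the 8 genes and 0.000148 for all tested genes. In 7 of the 8 genes both YAP5SA libraries lay above both YAP5SA-S94A libraries, against 34.5% of tested genes in that direction and 68.2% without overlap in either direction. The aligned sequence behind the TPM, worked out from the deposited columns, was 5.10 and 4.02 gigabases in YAP5SA and 5.02 and 4.97 gigabases in YAP5SA-S94A, and mitochondrial genes accounted for 7.53% and 10.2% of the YAP5SA total and for 12.6% and 14.03% of the YAP5SA-S94A total. With that chromosome left out, Cav1, Cav2, Cav3, Cavin1, Cavin2 and Cavin4 were still called higher. Over all genes tested, 2134 were then called higher and 2660 lower, against 2337 and 2083 with the chromosome kept. In these bulk samples, more cells of a type and more RNA per cell cannot be told apart.

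**Figure D1:**
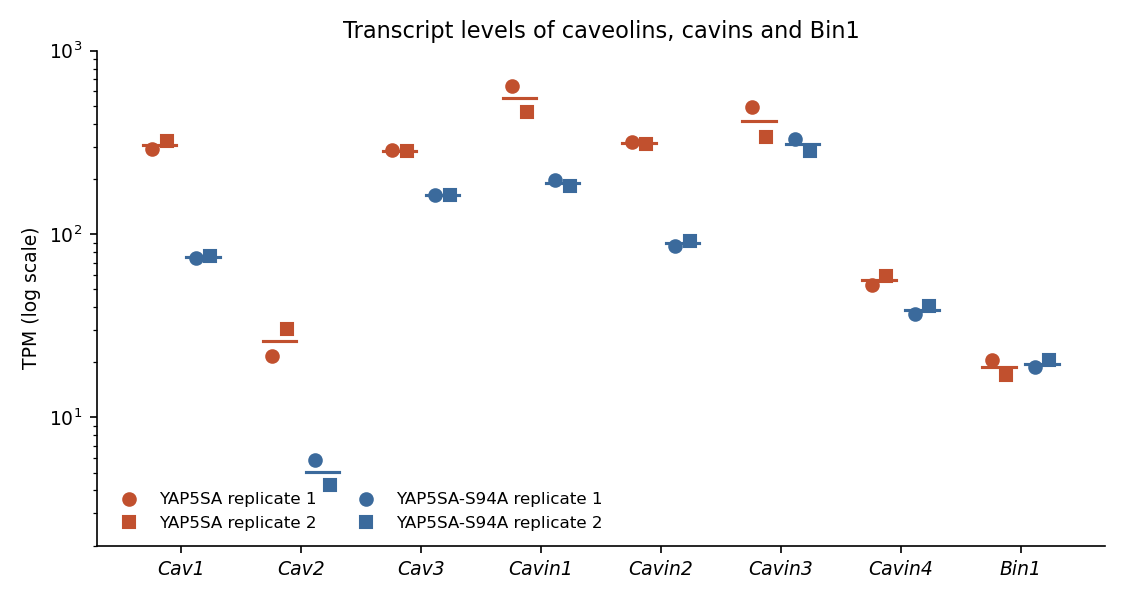
TPM of each gene in each library on a log axis, YAP5SA in red left of YAP5SA-S94A in blue, with circles for replicate 1, squares for replicate 2 and a line at the group mean. Cav1, Cav2, Cavin1 and Cavin2 stand clearly apart between the groups, and the 4 Bin1 values lie between 17.1 and 20.6 TPM.

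The stretches before the annotated starts of 4 of the genes that rose are shown, since the tested YAP forms differ in binding to TEAD. They include every stretch with a match to the motifs marked below. Cavin1 and Cavin4 also rose, but their stretches hold no such match and are not shown. The sequences are from RefSeq (build GRCr8, which is later than that of the deposited tables) and run 5′ to 3′ on the gene's strand over the 250 bases before the start. Promoter entries were matched by symbol for 7 of the 8 genes, all except Cavin3. Capitals mark GGAATG, the core of the TEAD site, or TGANTCA, the AP-1 site. The stretches are chr4:46582431-46582680 (plus strand) for Cav2, chr4:46606288-46606537 (plus) for the first of 2 Cav1 entries, chr4:147137743-147137992 (plus) for Cav3 and chr9:57806025-57806274 (minus) for Cavin2.
Cav2: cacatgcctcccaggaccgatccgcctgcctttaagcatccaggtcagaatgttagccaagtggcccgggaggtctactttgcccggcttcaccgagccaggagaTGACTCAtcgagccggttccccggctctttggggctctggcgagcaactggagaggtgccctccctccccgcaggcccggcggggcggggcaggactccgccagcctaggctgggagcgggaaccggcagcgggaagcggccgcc
Cav1: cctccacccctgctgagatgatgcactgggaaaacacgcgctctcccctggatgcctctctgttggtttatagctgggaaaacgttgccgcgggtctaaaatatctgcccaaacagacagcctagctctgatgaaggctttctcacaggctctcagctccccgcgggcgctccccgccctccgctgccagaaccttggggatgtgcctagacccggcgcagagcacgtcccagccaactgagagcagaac
Cav3: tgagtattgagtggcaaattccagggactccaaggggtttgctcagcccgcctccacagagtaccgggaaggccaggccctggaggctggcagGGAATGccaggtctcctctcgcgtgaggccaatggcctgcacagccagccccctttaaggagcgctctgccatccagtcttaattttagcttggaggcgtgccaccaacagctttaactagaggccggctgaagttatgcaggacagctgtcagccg
Cavin2: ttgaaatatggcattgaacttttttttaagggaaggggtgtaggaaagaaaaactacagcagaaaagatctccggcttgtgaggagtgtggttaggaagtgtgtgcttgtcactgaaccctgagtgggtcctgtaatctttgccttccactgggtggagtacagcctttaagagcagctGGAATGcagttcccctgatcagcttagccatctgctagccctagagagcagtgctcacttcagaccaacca

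GGAATG, searched on both strands, was found before Cav3, at 157 to 152 bases before the start, and before Cavin2, at 71 to 66 bases. It was thus in 2 of 7 genes, and 12.1% of the 33469 promoter stretches of the same length hold it. TGANTCA, likewise searched on both strands, was found before Cav2 alone among the 7 genes, at 145 to 139 bases, and 6.34% of all stretches hold it. The CArG box, bound by serum response factor and also searched on both strands, was found before 0 of the 7 genes, and 1.497% of all stretches hold it. The matches do not overlap one another. In all 7 motifs were searched on both strands, and 4 of them are not marked. GATA was found before 1 of the 7 genes (55.9% of all stretches), the E-box CANNTG before 5 (65.5%), the CCAAT box before 2 (34.017%) and the GC box GGGCGG before 4 (30.5%). A match describes the letters only, and the absence of one says only that the letters are not in this window.

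The paired caveolins Cav1 and Cav2 had the largest differences. Cav1, the main coat protein of caveolae outside muscle (chromosome 4, 45640624 to 45673708, build rn7 here and below), stood at 291 and 323 TPM in YAP5SA and at 74.5 and 75.7 TPM in YAP5SA-S94A. Both YAP5SA libraries lay about 4-fold above the others, with a ratio of mean TPM of 4.09. The log2 fold change was 2.02 (SE 0.10, limma adjusted p = 2.86e-05). Only 1.82% of tested genes had a larger one. Cav2, which joins Cav1 in hetero-oligomers, lies 16479 bases before it on the same strand (chromosome 4, 45616766 to 45624144). It stood at 21.7 and 30.3 TPM in YAP5SA, against 5.84 and 4.27 TPM in YAP5SA-S94A. The log2 fold change was 2.15 (SE 0.21, limma adjusted p = 4.43e-04), and the YAP5SA-S94A level was the lowest of any of the 8 genes. The ratio of Cav1 to Cav2 TPM was 13.4 and 10.7 in YAP5SA and 12.8 and 17.7 in YAP5SA-S94A, so it overlapped between the groups while both genes differed.

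Cav3, the muscle caveolin (chromosome 4, 145582168 to 145598142), also rose, by a smaller amount. It stood at 288 and 283 TPM in YAP5SA and at 164 and 163 TPM in YAP5SA-S94A. The libraries of a group were within a few TPM of each other, and the ratio of means was 1.75 (log2 fold change 0.80, SE 0.087, limma adjusted p = 6.13e-04).

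Among the cavins, Cavin1 and Cavin2 rose most. Cavin1, the cavin needed for caveolae in all tissues (chromosome 10, 85884100 to 85896136), stood at 643 and 462 TPM in YAP5SA, against 197 and 183 TPM in YAP5SA-S94A. The YAP5SA libraries differed from each other, yet the lower of them was well above both others (log2 fold change 1.52, SE 0.15, limma adjusted p = 4.73e-04). Cavin2, a phosphatidylserine-binding cavin that shapes caveolae (chromosome 9, 50302079 to 50314096), stood at 316 and 308 TPM in YAP5SA. It stood at 85.8 and 92.3 TPM in YAP5SA-S94A. The difference was 1.80 on the log2 scale (SE 0.093, limma adjusted p = 3.27e-05), and 2.51% of tested genes had a larger one. The stretch before its start, shown above, holds 1 of the 2 GGAATG matches, the one nearer to a start. The other is before Cav3, and the stretches before Cav1, Cav2 and Cavin1 hold none.

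Cavin4, the cavin of heart and skeletal muscle (chromosome 5, 62996906 to 63007677), rose by less than the other cavins that passed the test. It stood at 53.0 and 59.1 TPM in YAP5SA and at 36.8 and 40.4 TPM in YAP5SA-S94A. The log2 fold change was 0.53 (SE 0.12, limma adjusted p = 0.0134). Without YAP5SA-S94A replicate 1 the difference was 0.46 and no longer called (limma adjusted p = 0.131).

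Cavin3, a cavin also named as a binding partner of protein kinase C delta (chromosome 1, 159826549 to 159828138), did not pass the test. It stood at 493 and 339 TPM in YAP5SA and at 331 and 285 TPM in YAP5SA-S94A. YAP5SA replicate 2 lay just above YAP5SA-S94A replicate 1, and the spread within YAP5SA was larger than that gap. The log2 fold change of 0.41 had a 95% interval from −0.0051 to 0.82 (limma adjusted p = 0.118), so a rise of the size of Cavin4's lies within it. The value turned on single libraries. It was 0.14 without YAP5SA replicate 1, 0.68 and called without YAP5SA replicate 2 (limma adjusted p = 0.0134), 0.52 and called without YAP5SA-S94A replicate 1 (0.0374), and 0.30 and not called without YAP5SA-S94A replicate 2.

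Bin1, the T-tubule gene (chromosome 18, 24009731 to 24067267), stood at 20.6 and 17.1 TPM in YAP5SA and at 18.8 and 20.5 TPM in YAP5SA-S94A. Both YAP5SA-S94A values lay within the YAP5SA range. The log2 fold change was −0.057 with a 95% interval from −0.40 to 0.29 (limma adjusted p = 0.798). That interval does not reach the estimated differences of Cav1, Cav2, Cav3, Cavin1, Cavin2 and Cavin4. It does overlap the 95% interval of Cavin4, from 0.25 to 0.81. The sign of the Bin1 difference changed without YAP5SA replicate 2 (0.069) or YAP5SA-S94A replicate 2 (0.0014). Bin1 has muscle-specific and ubiquitous splice forms, and the gene-level values do not separate them.

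The makeup of each family differed between the groups along with its total. The 3 caveolins together reached 601 and 637 TPM in YAP5SA, against 244 and 243 TPM in YAP5SA-S94A. Cav3 made up 48.0% and 44.4% of caveolin TPM in YAP5SA and 67.1% in both YAP5SA-S94A libraries. The share of Cav1 was 48.4% and 50.8% in YAP5SA, against 30.5% and 31.2% in YAP5SA-S94A. The ratio of Cav1 to Cav3 TPM was 1.01 and 1.14 in YAP5SA and 0.454 and 0.465 in YAP5SA-S94A. By coverage per gigabase, a measure described with the level order, the Cav3 share was higher, at 57.5% and 53.8% in YAP5SA and 75.0% and 75.1% in YAP5SA-S94A, with the same direction. These shares are taken within a library and do not depend on scaling between libraries. The exact two-sided permutation test of the Cav3 share gave p = 0.333, the smallest that 2 libraries against 2 allow.

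The 4 cavins together reached 1505 and 1168 TPM in YAP5SA and 650 and 601 TPM in YAP5SA-S94A. Cavin3 made up 32.7% and 29.0% of cavin TPM in YAP5SA, against 50.9% and 47.5% in YAP5SA-S94A. The share of Cavin1 was 42.7% and 39.6% in YAP5SA libraries and 30.2% and 30.4% in YAP5SA-S94A. These levels hold for TPM only. By coverage per gigabase, the share of Cavin1 was 10.9% and 9.73% in YAP5SA and 6.64% and 6.75% in YAP5SA-S94A, and that of Cavin3 was 50.9% and 43.3% in YAP5SA and 68.1% and 63.7% in YAP5SA-S94A, with both differences in the same direction as by TPM. The share of Cavin4 was 3.52% and 5.06% in YAP5SA and 5.66% and 6.72% in YAP5SA-S94A (exact two-sided permutation p = 0.333). The ratio of summed cavin to summed caveolin TPM was 2.50 and 1.83 in YAP5SA and 2.66 and 2.47 in YAP5SA-S94A. These ranges overlapped (exact two-sided permutation p = 0.667). By coverage per gigabase the ratio was 1.93 and 1.49 in YAP5SA and 2.22 and 2.07 in YAP5SA-S94A, without overlap (exact two-sided permutation p = 0.333). The ratio of Cavin4 to Cav3, the muscle pair, was 0.184 and 0.209 in YAP5SA and 0.224 and 0.248 in YAP5SA-S94A. This pair and the other ratios of single genes were chosen after the values were seen.

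**Figure D2:**
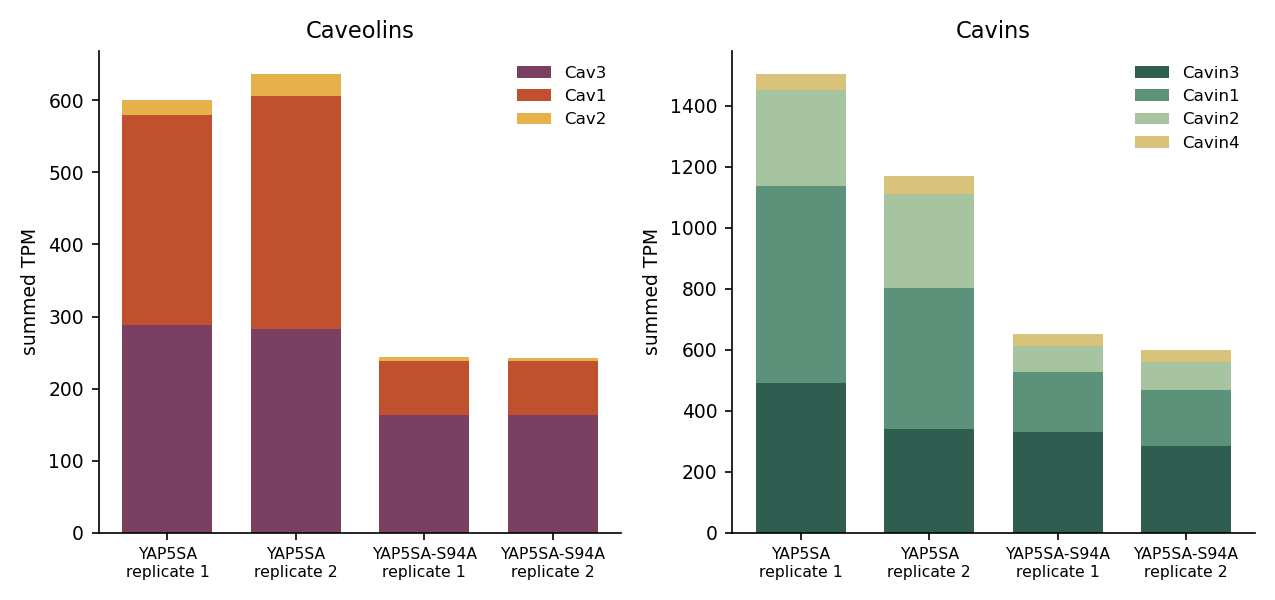
Summed TPM of the caveolins (left) and cavins (right) in each library, stacked by gene, with the YAP5SA libraries left of the YAP5SA-S94A libraries and both axes starting at 0. Caveolin totals were 601 and 637 TPM in YAP5SA and 244 and 243 TPM in YAP5SA-S94A, with the larger part of the added height in Cav1.

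The order of the 8 genes by mean TPM differed between the groups. In YAP5SA it ran Cavin1 (553 ± 128, SD, n = 2), Cavin3 (416 ± 109), Cavin2 (312 ± 5.65), Cav1 (307 ± 22.9), Cav3 (286 ± 3.61), Cavin4 (56.1 ± 4.32), Cav2 (26.0 ± 6.13) and Bin1 (18.9 ± 2.46). Libraries of Cavin1 and Cavin3 overlapped there, though within each YAP5SA library Cavin1 was above Cavin3 by TPM (ratio 1.31 and 1.37). By coverage per gigabase, described below, that ratio was 0.214 and 0.225. Cavin2 and Cav1 also overlapped and changed places between the YAP5SA libraries, so they are not separated beyond their spread. In YAP5SA-S94A the order was Cavin3 (308 ± 32.6), Cavin1 (190 ± 9.63), Cav3 (163 ± 0.721), Cavin2 (89.0 ± 4.597), Cav1 (75.1 ± 0.829), Cavin4 (38.6 ± 2.52), Bin1 (19.6 ± 1.19) and Cav2 (5.05 ± 1.11). No neighbours in that order overlapped. The places of Cavin1, Cav1 and Cav3 depended on the deposited measure. The FPKM of Cavin1 was 6.09-fold and 6.07-fold its per-base coverage per gigabase of aligned sequence in YAP5SA, and 6.08-fold and 6.05-fold in YAP5SA-S94A. That ratio was 1 in every library for Cav2, Cav3, Cavin2, Cavin3 and Cavin4, and 1.52 for Cav1. By coverage per gigabase, Cavin1 stood at 42.3 and 28.7 in YAP5SA and at 12.9 and 11.9 in YAP5SA-S94A, below Cav1, at 76.6 and 80.1 in YAP5SA and 19.5 and 19.6 in YAP5SA-S94A. Cav3 stood at 116 and 107 in YAP5SA by that measure, above Cav1, whereas by TPM Cav1 was above Cav3 there. The direction of the Cavin1 difference was the same on both measures.

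Genes of proteins that act at caveolae beside the coat gave fewer calls. In the list of 10 caveola accessory genes 9 were tested, of which 3 rose (17.4% of all tested genes did) and 0 fell, with a median log2 fold change of 0.19. Ehd2, the ATPase that ring-fences the caveola neck, was the clearest, at 161 and 145 TPM in YAP5SA and 66.5 and 63.6 TPM in YAP5SA-S94A (log2 fold change 1.22, limma adjusted p = 2.03e-04). Its relative Ehd1, an endocytic recycling ATPase, differed by 0.48 (limma adjusted p = 0.0134) and missed the threshold when YAP5SA-S94A replicate 1 (0.096) or 2 (0.0701) was left out, or with no intensity trend (0.0505). The receptor kinase gene Ror1 stood at 10.1 and 9.04 TPM in YAP5SA, against 6.27 and 5.78 TPM in YAP5SA-S94A. Its call (limma adjusted p = 0.0346) was lost without YAP5SA replicate 1 (0.0728), YAP5SA-S94A replicate 1 (0.141) or YAP5SA-S94A replicate 2 (0.232), and also with no filter (0.0897) or FPKM (0.055). The abundant Ehd4 stood at 270 and 274 TPM in YAP5SA and 288 and 286 TPM in YAP5SA-S94A and was not called. Neither flotillin, the scaffold proteins of a separate kind of membrane domain, was called, with log2 fold changes of −0.10 for Flot1 and −0.17 for Flot2. Without YAP5SA replicate 1, Flot2 was called lower (−0.29, limma adjusted p = 0.0303).

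Genes of the T-tubule and of the dyad, where T-tubule and sarcoplasmic reticulum meet, moved mostly the other way. Of 15 genes, all tested, 8 fell and 1 rose, with a median log2 fold change of −0.47, where 15.5% of all tested genes fell. Cmya5, which encodes a protein that ties the dyad to the Z-disc, stood at 5.14 and 5.68 TPM in YAP5SA and 36.8 and 42.2 TPM in YAP5SA-S94A (log2 fold change −2.66, limma adjusted p = 4.15e-05). Trdn, which anchors calsequestrin to the ryanodine receptor, fell by 1.04 on the log2 scale, and Srl, the reticulum calcium-binding protein sarcalumenin, fell by 0.47. The Srl call was lost without YAP5SA-S94A replicate 2 (limma adjusted p = 0.123). Mtm1, Cacna1c, Ryr2 and Speg also fell, by 0.74, 0.52, 0.60 and 0.48. Cacna1c overlaps Dcp1b over 21188 bases and Speg overlaps LOC102550477 over 7639 bases, both on the opposite strand, so their values are uncertain. The gene that rose was Casq2, the calcium store protein calsequestrin, at 783 and 859 TPM in YAP5SA and 423 and 438 TPM in YAP5SA-S94A (log2 fold change 0.93, limma adjusted p = 4.06e-04). Jph2, the junctophilin that bridges both membranes, stood at 109 and 99.0 TPM in YAP5SA and 105 and 102 TPM in YAP5SA-S94A (0.0089, limma adjusted p = 0.957). Tcap, the titin cap protein, stood at 134 and 98.7 TPM in YAP5SA and at 106 and 109 TPM in YAP5SA-S94A, and without YAP5SA replicate 2 it was called higher (0.32, limma adjusted p = 0.0284). The membrane-scission GTPase gene Dnm2 was not called (−0.29, limma adjusted p = 0.127), but was called lower without YAP5SA replicate 1 (−0.46), and it overlaps Tmed1 on the opposite strand. Without YAP5SA-S94A replicate 2 the number that fell was 4, and without YAP5SA replicate 2 the number that rose was 2.

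Among the relatives of Bin1 with BAR domains, 7 of 8 listed genes were tested. Of these 2 rose and 1 fell, with a median log2 fold change of −0.36, where 32.9% of all tested genes were called in either direction, so the count is near the background. Sh3gl2, endophilin A1, stood at 8.92 and 6.59 TPM in YAP5SA and 2.13 and 1.44 TPM in YAP5SA-S94A (log2 fold change 1.65, limma adjusted p = 0.00215). Sh3gl1, endophilin A2, was higher by 0.45 and was not called without YAP5SA replicate 1, YAP5SA-S94A replicate 1 or YAP5SA-S94A replicate 2, and it overlaps Mpnd on the opposite strand. Sh3glb1, endophilin B1, stood at 128 and 134 TPM in YAP5SA and 205 and 209 TPM in YAP5SA-S94A (log2 fold change −0.65, limma adjusted p = 0.00172). Amph, amphiphysin, the closest relative of Bin1, stood at 20.5 and 14.95 TPM in YAP5SA and 10.3 and 12.6 TPM in YAP5SA-S94A and narrowly missed the threshold (limma adjusted p = 0.0567). Without YAP5SA replicate 2 it was called higher (0.80, limma adjusted p = 0.0284). Sh3glb2 (−0.47) and Bin3 (−0.36) were not called, but both were called lower without YAP5SA replicate 1.

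**Figure D3:**
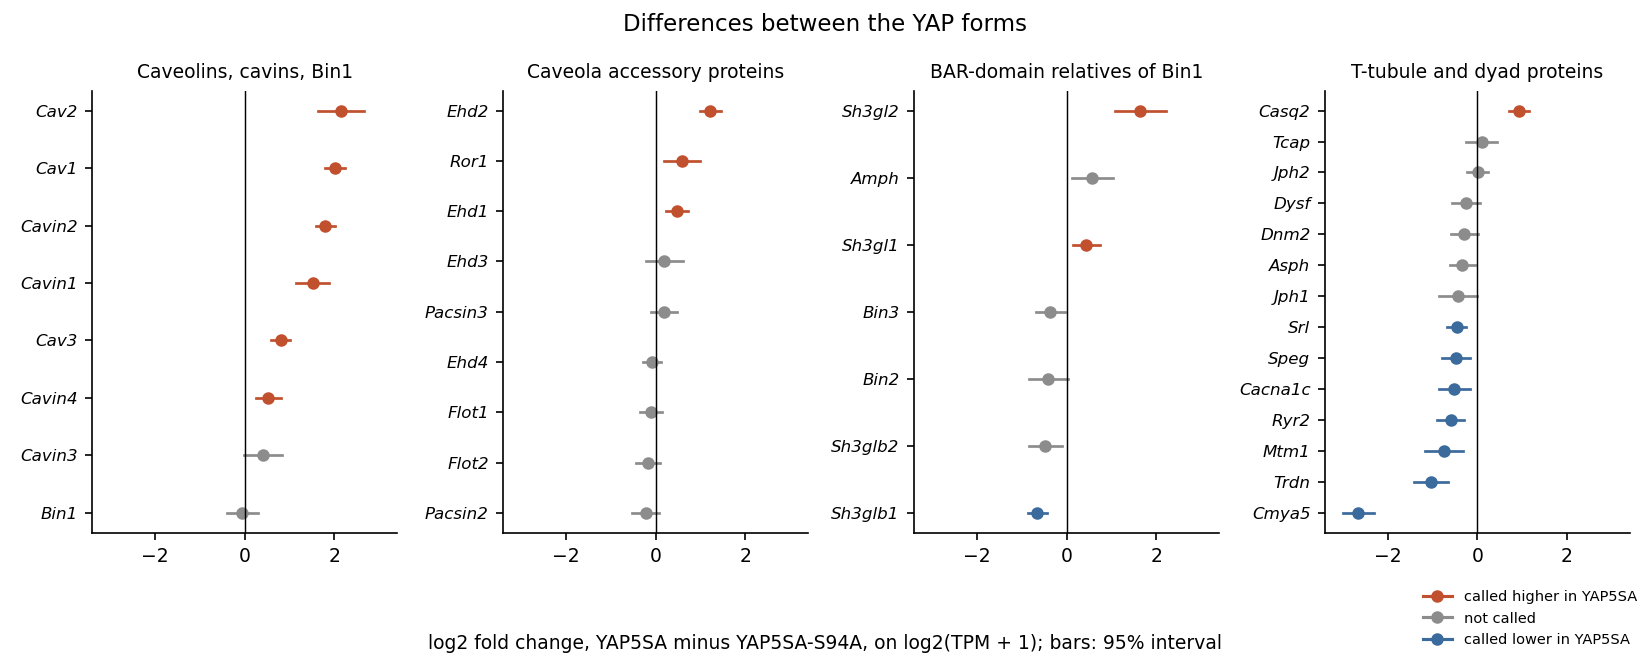
Log2 fold change of tested genes, YAP5SA minus YAP5SA-S94A, with 95% intervals from the limma fit, for the 8 genes and the 3 lists, red where called higher, blue where called lower and grey where not called. Called genes are 6 higher and 0 lower among the 8, 3 and 0 among caveola accessory genes, 2 and 1 among relatives of Bin1, and 1 and 7 among the T-tubule and dyad genes drawn, which leave out 1 called gene of that list.

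The 4 classical YAP and TEAD target genes used as a check all rose, by 3.62 for Ccn1, 1.95 for Ccn2, 2.22 for Ankrd1 and 3.23 for Amotl2 on the log2 scale. The differences of Cav1 (2.02), Cav2 (2.15) and Cavin2 (1.80) were near that of Ccn2, the smallest of the 4, and well below those of Ccn1 and Amotl2. The Yap1 entry, looked at after the other values were seen, stood at 105 and 99.1 TPM in YAP5SA and 117 and 121 TPM in YAP5SA-S94A and was not called. How much of the transgene it captures is not given in the sources used here.

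**Figure D4:**
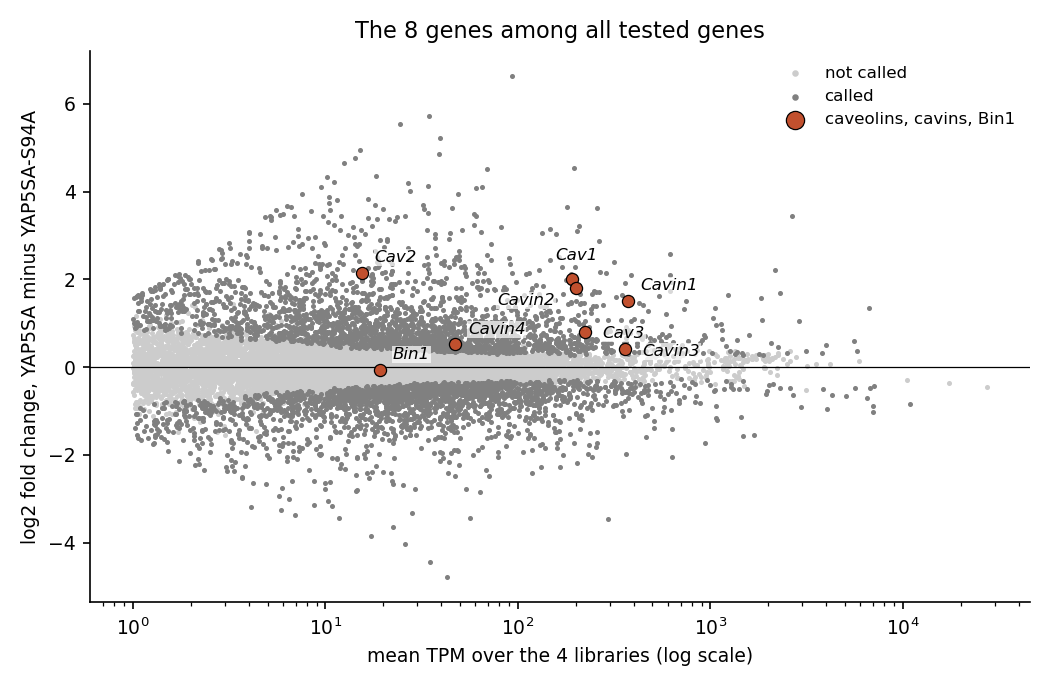
Log2 fold change against mean TPM over the 4 libraries on a log axis for the 13420 tested genes, grey, with darker points called, and the 8 genes in red. Cav1, Cav2, Cavin1 and Cavin2 lie in the upper part, with 1.82%, 1.56%, 3.69% and 2.51% of tested genes above them, and Bin1 lies at −0.057.

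The genes most like each of the 8 in pattern were found by Euclidean distance of gene-centred log2(TPM + 1) over the 4 libraries, among 8888 genes with a mean of at least 10 TPM. For Cav1 they were Plod2, a collagen lysyl hydroxylase gene (distance 0.0703), and LOC100361083, which overlaps Macf1 on the same strand (0.0777). Plod2 stood at 291 and 338 TPM in YAP5SA and 77.4 and 74.6 TPM in YAP5SA-S94A, close to Cav1 also in level. For Cav2 they were the tubulin gene Tuba1a (0.206) and the growth factor gene Tgfb2 (0.222). Patz1 (0.0276) and Habp4 (0.0369) were nearest to Cav3, and Patz1 overlaps LOC120096507 on the opposite strand, as Ppat overlaps Paics. Nectin2, an adhesion receptor gene (0.0713), and Ckb, brain-type creatine kinase (0.0743), were nearest to Cavin1, and Icam1, another adhesion receptor gene (0.0374), and Lmcd1 (0.0701) to Cavin2. For Cavin3 they were Ppp1r13l (0.00943) and Gpaa1 (0.0526), for Cavin4 Tmed5 (0.0216) and Ppat (0.033), and for Bin1 Mpdu1 (0.0215) and Anks3 (0.0234). With 4 libraries in 2 groups, such likeness rests on the size of the group difference and on the spread within groups. For Bin1, with a log2 fold change of −0.057, it rests mainly on that spread. Between the 8 genes themselves the shortest distances were those of Cav1 and Cavin2 (0.260), Cav3 and Cavin4 (0.318) and Cav1 and Cav2 (0.383).

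Within 100 kb of the 8 genes lay 29 other genes, of which 9 were tested, with 0 called higher and 1 lower in YAP5SA by limma. Over all tested genes 17.4% were called higher and 15.5% lower, and with 9 neighbours these counts are not set apart from that background. The one that fell was Gypc, a glycophorin gene near Bin1, at 51.4 and 40.4 TPM in YAP5SA and 87.9 and 77.7 TPM in YAP5SA-S94A (log2 fold change −0.84, limma adjusted p = 0.00417). None of the 8 overlapped another entry.

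Markers of other cell types were read in the same libraries, since Cav1, Cav2, Cavin1 and Cavin2 are also abundant outside muscle. Of 8 cardiomyocyte markers, all present, 7 fell and 0 rose, against 15.5% and 17.4% of all tested genes. The 1 marker not called lay higher in both YAP5SA libraries than in both YAP5SA-S94A libraries. The summed level of the 8 was 13869 and 13349 TPM in YAP5SA, against 21103 and 20632 TPM in YAP5SA-S94A. Ryr2 stands in this list and in the T-tubule and dyad list, where 8 of 15 genes fell. Cav3 and Cavin4 rose in the libraries where these fell. The 10 endothelial markers summed to 33.4 and 33.985 TPM in YAP5SA and 42.0 and 41.9 TPM in YAP5SA-S94A, with Cldn5 at 0 in every library and Pecam1, the endothelial adhesion gene, at 1.45 and 1.71 TPM in YAP5SA and 1.48 and 2.07 TPM in YAP5SA-S94A. Of 7 endothelial genes tested, Tek was called higher and Kdr lower, against 17.4% and 15.5% of all tested genes. The lower sum rested on Kdr. Without that gene, a sum added after the values were seen, the other 9 markers came to 29.4 and 30.7 TPM in YAP5SA and 20.7 and 22.004 TPM in YAP5SA-S94A, the opposite direction. The part of endothelial cells in the caveola gene results was not tested.

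The fibroblast markers summed to 8532 and 6751 TPM in YAP5SA and 7246 and 6892 TPM in YAP5SA-S94A. Of these 9, 0 were called higher and 2, Dcn and Postn, lower, against 17.4% and 15.5% of all tested genes. The smooth muscle and pericyte markers summed to 422 and 352 TPM in YAP5SA and 310 and 317 TPM in YAP5SA-S94A. Of 9 only Cnn1, a smooth muscle calponin, was called, higher in YAP5SA, against 17.4% of all tested genes. Cnn1 stood at 115 and 99.0 TPM in YAP5SA and 51.6 and 51.0 TPM in YAP5SA-S94A, and the higher sum rested largely on that gene. The epicardial and mesothelial markers summed to 108 and 92.2 TPM in YAP5SA and 49.955 and 43.8 TPM in YAP5SA-S94A. Of these 7 genes 6 were tested and 4 rose, namely Upk3b, Krt19, Aldh1a2 and Msln, against 17.4% of all tested genes. Not called were Wt1, at 2.63 and 2.27 TPM in YAP5SA and 3.10 and 2.83 TPM in YAP5SA-S94A, and Upk1b. Upk1b stood at 20.7 and 18.3 TPM in YAP5SA and 27.4 and 23.5 TPM in YAP5SA-S94A. Krt19 stood at 41.5 and 33.0 TPM in YAP5SA and 7.54 and 7.15 TPM in YAP5SA-S94A. Upk3b stood at 22.4 and 18.2 TPM against 0.611 and 0.544 TPM. The epicardial and mesothelial sum moved in the direction of Cav1 and Cavin2, mainly through Krt19 and Upk3b. Its part in the caveola gene results was not tested, nor was that of the cardiomyocyte, fibroblast, smooth muscle and macrophage markers. The 8 macrophage markers summed to 551 and 531 TPM in YAP5SA and 838 and 831 TPM in YAP5SA-S94A. Of 6 tested, 1 was called higher and 3 lower, against 17.4% and 15.5% of all tested genes. The lower sum rested largely on Lyz2, at 438 and 428 TPM in YAP5SA and 714 and 710 TPM in YAP5SA-S94A. Csf1r was called higher, at 38.2 and 37.5 TPM in YAP5SA and 14.6 and 12.9 TPM in YAP5SA-S94A. Adipocyte and Schwann cell sums were at most 5.46 and 5.45 TPM in any library, with Adipoq, Plin1 and Cidec at 0 throughout.

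**Figure D5:**
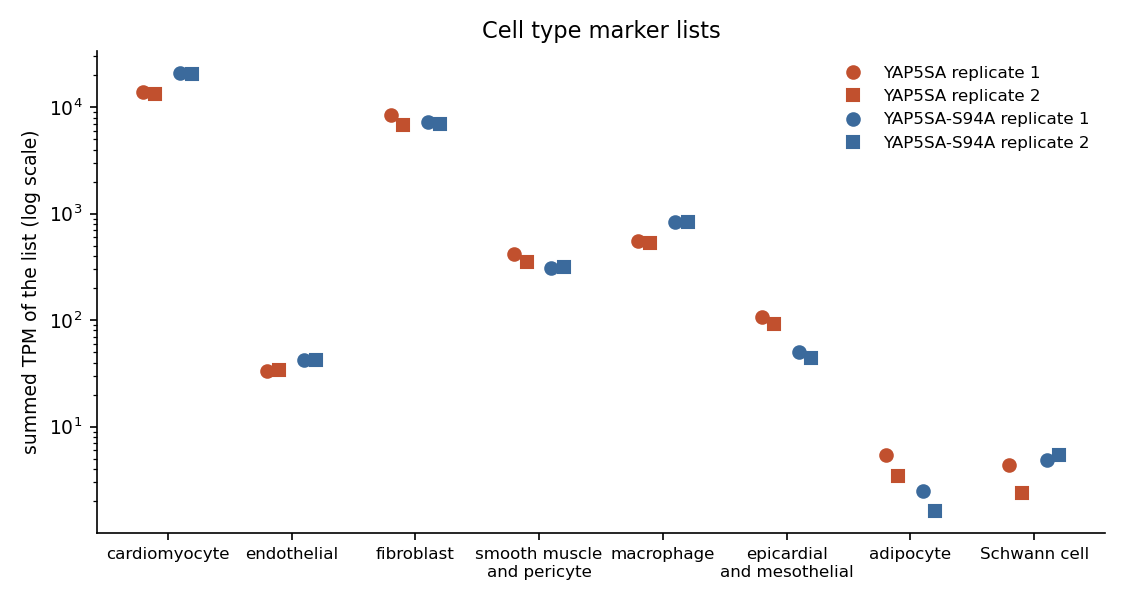
Summed TPM of each marker list in each library on a log axis, YAP5SA in red left of YAP5SA-S94A in blue. The cardiomyocyte sum is 13869 and 13349 TPM in YAP5SA and 21103 and 20632 TPM in YAP5SA-S94A, and the epicardial and mesothelial sum is 108 and 92.2 TPM in YAP5SA and 49.955 and 43.8 TPM in YAP5SA-S94A.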

How the data were processed

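Poly(A) RNA of 4 libraries was sequenced, per the labels. Per the submitters' processing notes, tools included fastp, HISAT2 2.2.1 and StringTie 2.2.1 with build rn7, and the RNA libraries kept strand, per the labels. Whether strand was used in quantification is not given in the sources used here. The authors deposited, per the file headers, coverage (signal per base), FPKM and TPM for each gene entry, and no read counts. TPM was summed over entries sharing a gene name. The aligned sequence in gigabases is the ratio of coverage to FPKM that a large set of entries in a library share, and coverage per gigabase was used as an alternative.

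Genes with a mean of at least 1 TPM entered a limma 3.58.1 fit (R 4.3.3) of log2(TPM + 1), group as the only term and an intensity trend, with Benjamini-Hochberg adjustment over 13420 genes and a threshold of 0.05. Fold changes on this scale understate those of low genes. Shares and ratios were compared by exact permutation of libraries. Tables were made with Python 3.11.15, pandas 2.3.3 and numpy 2.4.6.

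All 8 genes are described. In each related list up to 4 called genes per direction with the smallest p and up to 3 uncalled genes with the highest mean TPM are named, with the 2 genes nearest in pattern to each of the 8, called neighbours within 100 kb, and 4 target genes. The genes and lists were chosen with earlier results of these data known. Alternatives covered filter, pseudocount, scaling, FPKM, trend, threshold, the highest entry of each name, replicate block and left-out libraries. One gene that this rule selects and 1 marker gene are not reported here by name, though the counts and sums of their lists include them.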

Additional observations from a re-analysis of the deposited data

How the results depend on the processing

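Cav1, Cav2, Cav3, Cavin1 and Cavin2 were called higher in all 17 alternatives run, Cavin4 in 15, Cavin3 in 3 and Bin1 in 0. Of the 17, the fit on the highest entry of each name left the differences of the 8 genes unchanged, since each is on 1 entry. With an adjusted p under 0.01, 1439 genes were higher and 1046 lower, and Cavin4 was not called. The lists then gave 1 accessory gene and 1 relative of Bin1 higher and 4 T-tubule and dyad genes lower. With no filter, 5 T-tubule and dyad genes were lower and 1 relative of Bin1 higher. Accessory genes called higher were 2 with no filter, FPKM or no intensity trend. The relatives of Bin1 called higher were 1 with FPKM or no intensity trend and 0 with coverage per gigabase, an alternative chosen after seeing the data. Those called lower were 2 with a mean TPM of at least 5, median-of-ratios scaling or quantile normalization, and 3 without the mitochondrial chromosome. T-tubule and dyad genes called lower were 9 with quantile normalization and 10 without the mitochondrial chromosome. Over all tested genes, quantile normalization gave 2230 higher and 2443 lower. The cause of these shifts was not tested. Replicate numbers were not taken to pair the libraries (2 pairs, correlation of deviations 0.1011). A replicate block gave 2726 genes higher and 2593 lower, 3 relatives of Bin1 lower, and called Cavin3 (0.41, limma adjusted p = 0.00479). Leaving out 1 library at a time, with the lone library assumed to vary like the other group, gave 1700 to 2610 genes higher and 1312 to 2739 lower, 6 to 7 of the 8 genes higher, 1 to 3 accessory genes higher and 0 to 2 lower, 1 to 2 T-tubule and dyad genes higher and 4 to 11 lower, and 1 to 3 relatives of Bin1 in each direction. Bin1 then ranged from −0.18 to 0.069, with 0.0014 without YAP5SA-S94A replicate 2, and Tcap from −0.12 to 0.32. Jph2 ranged from −0.059 to 0.077, with −0.012 without YAP5SA-S94A replicate 2, and was −0.020 with FPKM or coverage, −0.0023 with quantile normalization and −0.062 without the mitochondrial chromosome. With 2 libraries a group and no read counts, small differences and counting error cannot be resolved.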
